A study of Homo sapiens with 8 samples.

Results

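Long noncoding RNA (lncRNA) genes that were well expressed in HEK293T, a human line derived from embryonic kidney, were compared between 3 CRISPR-based activators and their control. The members are the genes typed as lncRNA and nothing else whose mean over both control libraries was at least 10 CPM (counts scaled to a fixed library total). The rule gave 135 genes out of 2813 lncRNA genes and 19770 genes of all types, and 1 further lncRNA gene is not analysed here. A further 13 genes with a mixed type that includes lncRNA did not meet the rule. Control levels chose the members, so the control values are a description. Just inside the limit were *LINC01128* at 10.9 and 9.32 CPM in the control libraries and *THAP7-AS1* at 10.1 and 10.2 CPM. Just outside were *LINC01719* at 10.7 and 9.29 CPM and *LINC01547* at 10.7 and 8.998 CPM.

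RNA-seq was performed 72 h after transient transfection in 4 groups with 2 libraries each. Control cells received dCas9, a nuclease-dead Cas9, with MCP-mCherry, a fluorescent protein fused to the MS2 coat protein that binds MS2 loops in a gRNA. The DREAM group received dCas9 with MCP-MSN, a fusion of activation domains from human transcription factors. The SAM group received dCas9-VP64 with MCP-p65-HSF1, and the dCas9-VPR group received dCas9 fused directly to VP64, p65 and Rta. Every group, the control included, also received a gRNA pool against the promoters of *HBG1* and *HBG2*, with MS2 loops in all groups but dCas9-VPR. None of the lncRNA genes was itself a target. The labels number the replicates but do not say whether they were separate cultures, so p-values measure the spread between these libraries.

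Long noncoding RNAs are transcribed and processed much like messenger RNAs but are not known to be translated into a conserved protein. Some act as RNAs, such as *NEAT1*, the scaffold of nuclear paraspeckles, or *NORAD*, which binds PUMILIO proteins in the cytoplasm. Others, the host genes, carry small nucleolar RNAs (snoRNAs) in their introns. Their introns are cut into snoRNAs that guide chemical modification of ribosomal RNA, while the spliced host RNA is often degraded in the cytoplasm by nonsense-mediated decay. Many more are named for lying antisense to a coding gene or for sharing a bidirectional promoter with one.

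The members held between 0.756% and 1.00% of the CPM of each library, and all 135 passed the filter on low values (at least 1 CPM in at least 2 libraries) that left 15122 genes in the test. The files give CPM and no read counts, so sequencing depth is not known from them. Replicates of the members were farther apart than those of coding genes. The SD of the log2 ratio between replicates was 0.231 to 0.357 over the members and 0.103 to 0.166 over coding genes with a control mean of at least 10 CPM. The scaled median absolute deviation, on which outliers weigh less, was 0.116 to 0.237 and 0.09 to 0.164. In each group 1 to 4 members had replicates over 2-fold apart. The labelled cell line was checked by its markers, with *VIM* at 267 to 440 CPM and *KRT18* at 79.7 to 101 CPM over the 8 libraries and *KRT8* at 50.2 and 45.2 CPM in the control and 78.5 to 113 CPM with the activators, a shift whose part in the results was not tested, whereas *PAX2* was low at 0.798 to 1.73 CPM. The endothelial marker *PECAM1* was at most 1.17 CPM, a level reached with SAM, and the cardiomyocyte marker *MYH6* was at most 0.247 CPM. The leukocyte and hepatocyte markers were not analysed here. In bulk RNA, fewer cells and less RNA per cell cannot be told apart.

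In CPM, which is not divided by length, *SNHG29* was highest in the control at 1785 and 2032 CPM, followed by *GAS5* at 732 and 834 CPM. *SNHG32* was at 395 and 412 CPM. Divided by the exonic bases of Gencode release 44, where 132 of the 135 genes were found, the control levels of these host genes were 224 CPM per kb for *SNHG32*, 213 for *SNHG29* and 159 for *GAS5*. Only *FP236383.4*, *FP236383.5* and *FP671120.6*, which lie in ribosomal DNA, were higher per kb, at 599, 276 and 276. The level of 1 member is counted in all totals and not described.

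The first question was how these lncRNAs differed between each activator and the control, since all groups carried the same gRNA targets. The groups differed in the effector. The dCas9-VPR group also differed in its gRNAs, without MS2 loops, and in a direct fusion in place of an MCP fusion. With DREAM, 10 of the 135 members were higher and 25 were lower than in the control at a false discovery rate (FDR) below 0.05, 25.9% in all, beside 28% of all genes tested and 29.3% of the 9579 genes with a control mean of at least 10 CPM. The higher and lower members were 7.41% and 18.5% of members, beside 18.8% and 9.25% of all genes tested. With SAM, 40 were higher and 23 lower, 46.7% in all beside 44.6% of all genes and 45.9% of those at 10 CPM or more. The higher and lower members were 29.6% and 17%, beside 35.7% and 8.89% of all genes. With dCas9-VPR, 7 were higher and 27 lower, 25.2% in all beside 17.6% of all genes and 19.9% of those at 10 CPM or more. The higher and lower members were 5.19% and 20%, beside 11% and 6.68% of all genes. At the fold change above 2 that the study's methods use, 5, 4 and 6 members were lower with DREAM, SAM and dCas9-VPR and 0 were higher. The same threshold was passed by 2.55%, 4.34% and 1.1% of all genes, with decreases in 0.503%, 0.456% and 0.641%, and by 0.532%, 0.637% and 0.261% of the genes with a control mean of at least 10 CPM. The 3 comparisons share the 2 control libraries. A gene can be a member through its control level alone, which favours decreases, so the lack of 2-fold increases is a description. With members taken at a mean of 10 CPM over all 8 libraries (143 genes), 3, 5 and 4 passed a 2-fold change in either direction.

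Scaling mattered for the direction with SAM. The median of all genes tested was 0.16 higher on the log2 scale with SAM than in the control, and scaling by the median of ratios, which removes that shift, turned 40 higher and 23 lower members into 23 higher and 40 lower. The same scaling gave 7 higher and 34 lower with DREAM and 6 and 30 with dCas9-VPR. The median log2 fold change of the members was -0.07 with DREAM, 0.08 with SAM and -0.04 with dCas9-VPR, beside 0.06, 0.16 and 0.06 over all genes. Of lncRNA genes under 10 CPM in control cells, 1039 were tested. With SAM 400 (38.5%) were higher and 32 (3.08%) lower, with DREAM 125 (12%) and 43 (4.14%), and with dCas9-VPR 48 (4.62%) and 38 (3.66%). The shares of all genes are given above. A gene of this set can pass the filter on low values through an activator group alone, which favours increases, so these counts are a description.

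Because control levels chose the members, these counts were also taken with members chosen on 1 control library and tested against the other. Chosen on control replicate 1 (136 genes), 11 were higher and 26 lower with DREAM, 32 and 27 with SAM, and 8 and 27 with dCas9-VPR. Chosen on control replicate 2 (131 genes), these counts were 5 and 18, 27 and 21, and 1 and 15. *PVT1*, *AC133555.6* and *SNHG15* passed a 2-fold decrease in all 3 comparisons under both choices. A 2-fold increase was passed by *LINC01719* with SAM and by 1 gene with DREAM under the first choice, and by *LBX1-AS1* with SAM under the second, genes that are named after their values were seen or, for the DREAM one, not described.

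*PVT1* had the largest decrease among the members in all 3 comparisons, with DREAM by less than its error. It is a lncRNA next to *MYC* that hosts several microRNAs, at chr8:127794526-128187102 on hg38, plus strand. *PVT1* was at 23.2 and 22.5 CPM in control cells, 5.85 and 4.88 CPM with DREAM, 4.86 and 5.37 CPM with SAM, and 5.15 and 6.03 CPM with dCas9-VPR. All 6 activator libraries were far below both control libraries and overlapped each other. Its log2 fold change was -2.00 with DREAM (standard error (SE) 0.13, adjusted p = 5.01e-06), -2.06 with SAM (adjusted p = 5.82e-06) and -1.94 with dCas9-VPR (adjusted p = 1.72e-05). Between activators the differences of *PVT1* were 0.06 for DREAM against SAM, -0.06 for DREAM against dCas9-VPR and -0.12 for SAM against dCas9-VPR, each with an SE of 0.13. *MYC*, whose start is 59092 bases before that of *PVT1*, was at 61.3 and 60.4 CPM in control cells, 74.0 and 75.5 CPM with DREAM, 57.3 and 64.7 CPM with SAM, and 63.5 and 73.9 CPM with dCas9-VPR.

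*AC133555.6*, an unnamed lncRNA at chr16:29442917-29613718, minus strand, was nearly as strongly lower. It was at 15.1 and 15.4 CPM in control cells, 3.39 and 3.72 CPM with DREAM, 5.22 and 5.39 CPM with SAM, and 4.56 and 4.50 CPM with dCas9-VPR. The groups did not overlap, and the log2 fold changes were -1.96 (SE 0.11, adjusted p = 2.88e-06), -1.44 and -1.65. It was also lower with DREAM than with SAM, by a log2 fold change of -0.52 (adjusted p = 0.0199), a difference that was not called in the fit of those 4 libraries alone or without either SAM library (-0.46 to -0.58 over the libraries left out). This gene overlaps *BOLA2* and *BOLA2-SMG1P6* on its own strand, in a region of near-identical copies, so the assignment of its reads is uncertain. *BOLA2-SMG1P6* changed by -0.12, -0.06 and -0.26.

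*SNHG15*, a snoRNA host at chr7:44983023-44986962, minus strand, was at 110 and 120 CPM in the control. It was at 51.0 and 51.0 CPM with DREAM, 47.2 and 51.9 CPM with SAM, and 42.0 and 40.6 CPM with dCas9-VPR. Its log2 fold changes were -1.16 (SE 0.07, adjusted p = 3.55e-06), -1.21 and -1.47, the smallest errors among the genes past a 2-fold change. *GUSBP11*, of the *GUSB* pseudogene family whose near-identical copies can share reads, was at 11.1 and 10.3 CPM in control cells, 5.07 and 5.32 CPM with DREAM, 4.42 and 5.74 CPM with SAM, and 4.17 and 5.15 CPM with dCas9-VPR. It passed a 2-fold decrease with SAM (log2 fold change -1.02) and dCas9-VPR (-1.13), and with DREAM it was at -0.98 (adjusted p = 0.000931). *PURPL*, a lncRNA known as a p53 target and named here after its values were seen, was at 10.6 and 10.7 CPM in control cells, 4.81 and 5.62 CPM with DREAM, 5.80 and 6.17 CPM with SAM, and 6.90 and 7.09 CPM with dCas9-VPR. It fell in all 3 comparisons, by 0.97, 0.78 and 0.57 on the log2 scale.

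**Figure D1:**
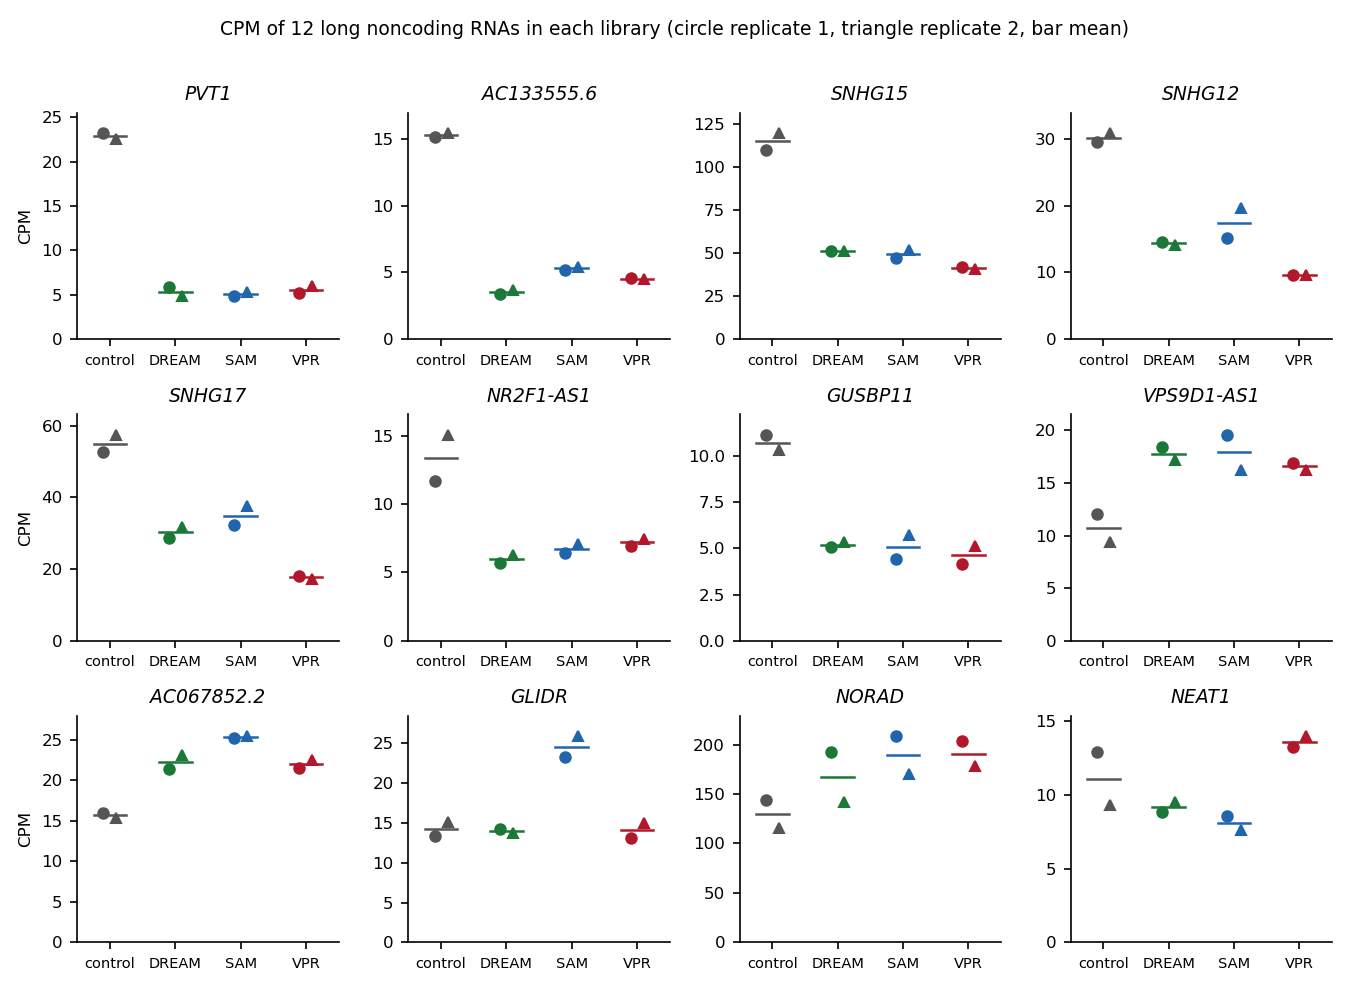
CPM (vertical axes, linear and starting at 0) of 12 lncRNAs in the control, DREAM, SAM and dCas9-VPR (VPR) groups, with a circle for replicate 1, a triangle for replicate 2 and a bar for the mean. *PVT1* drops from 23.2 and 22.5 CPM to between 4.86 and 6.03 CPM in all activator libraries, whereas *GLIDR* is higher with SAM only, at 23.2 and 25.8 CPM.

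Increases were smaller, and 0 of the 135 members passed a 2-fold increase in the fit of all 8 libraries. The 3 ribosomal DNA genes described below passed one with DREAM in the fit of those 4 libraries alone. *VPS9D1-AS1*, antisense to *VPS9D1* and at chr16:89711856-89718166, was at 12.03 and 9.37 CPM in control cells, 18.4 and 17.2 CPM with DREAM, 19.6 and 16.2 CPM with SAM, and 16.9 and 16.3 CPM with dCas9-VPR. It rose by a log2 fold change of 0.72 with DREAM (adjusted p = 0.00243), 0.72 with SAM (adjusted p = 0.00145) and 0.62 with dCas9-VPR (adjusted p = 0.0105), the last of which was not called without control replicate 2 or either dCas9-VPR library (0.45 to 0.79). Its sense partner *VPS9D1* was at 0.27, 0.12 and 0.05 in the same comparisons, none called. *AC067852.2*, which RefSeq names *HSD17B1-AS1*, rose by 0.49, 0.67 and 0.48, from 16.0 and 15.4 CPM in the control to between 21.4 and 25.4 CPM with the activators. *AC005670.3* rose by 0.42, 0.57 and 0.41, with the DREAM call lost without control replicate 2 or DREAM replicate 1 (0.29 to 0.55) and the dCas9-VPR call without control replicate 2 or either dCas9-VPR library (0.36 to 0.46). *AL445524.1*, which starts within 1 kb of *TSNAX*, rose by 0.56 with DREAM and 0.53 with SAM, while with dCas9-VPR it was at 0.22 (adjusted p = 0.103). *FOXD3-AS1* rose by 0.41 with DREAM (0.28 to 0.53 over the libraries left out). This call was lost under median-of-ratios scaling (0.35, adjusted p = 0.062) and in the limma fit of those 4 libraries alone (0.41, adjusted p = 0.0586).

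*GLIDR* set SAM apart. This lncRNA at chr9:39748514-39810098, minus strand, was at 13.4 and 15.1 CPM in control cells, 14.2 and 13.7 CPM with DREAM, 23.2 and 25.8 CPM with SAM, and 13.1 and 15.0 CPM with dCas9-VPR. Both SAM libraries were above all 6 others. Its log2 fold change with SAM was 0.77 against the control (SE 0.10, adjusted p = 0.000375) and 0.78 against dCas9-VPR (adjusted p = 0.000658), and DREAM against SAM gave -0.79 (adjusted p = 0.00449, not called without SAM replicate 2). *NNT-AS1* rose with SAM by 0.68 from 17.03 and 17.2 CPM to 26.9 and 28.5 CPM, and *RPARP-AS1* by 0.67 from 10.1 and 10.6 CPM to 16.7 and 16.8 CPM. *RPARP-AS1* was also called higher with DREAM (0.27 to 0.34 over the libraries left out) and dCas9-VPR (0.30 to 0.45). The DREAM call was lost under median-of-ratios scaling (0.25, adjusted p = 0.0776). *NNT*, the coding partner of *NNT-AS1*, was at -0.09 with SAM (adjusted p = 0.225). *HCG11* was higher with SAM (0.52) and dCas9-VPR (0.54), and with dCas9-VPR leaving out any 1 of the 4 libraries ended the call (0.43 to 0.65), while the SAM call was lost without control replicate 2 or SAM replicate 1 (0.42 to 0.63). *ZBED5-AS1* was likewise higher with SAM (0.56) and only just called with dCas9-VPR (0.39, adjusted p = 0.049), where median-of-ratios scaling and any left-out library ended the call.

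Of the 19 snoRNA host genes among the members, 10 to 14 fell relative to the control and 0 rose by the test used here. They were taken by name (SNHG and a number, *GAS5*, *ZFAS1*, *DANCR* and *EPB41L4A-AS1*), and in Gencode release 44 a snoRNA lay inside all of them but *GAS5*, where the annotation used lists none. The list was chosen with earlier results of these data known, so its counts are a description. Relative to the control, 10 hosts fell with DREAM, 10 with SAM and 14 with dCas9-VPR, and 0 rose. Of all genes tested, 9.25%, 8.89% and 6.68% fell and 18.8%, 35.7% and 11% rose. The median log2 fold changes of the 19 hosts were -0.30, -0.36 and -0.54, beside -0.01, 0.15 and 0.00 over the other 116 members and 0.06, 0.16 and 0.06 over all genes tested. Taken instead by annotation, 20 members had a snoRNA inside, without *GAS5* and with *TMEM161B-AS1* and *UBA6-AS1*. Of these 9, 9 and 13 fell, and 1 rose, *UBA6-AS1* with SAM (0.36, adjusted p = 0.0358), named after its value was seen. The summed CPM of the 19 hosts was 4313 and 4841 in the control, 3627 and 3919 with DREAM, 3485 and 3628 with SAM, and 3237 and 3319 with dCas9-VPR. All 6 activator libraries were below both control libraries, and the dCas9-VPR libraries were lowest. Median-of-ratios scaling gave 12, 16 and 14 that fell and 0 that rose. The counts rested in part on control replicate 2, since 7, 10 and 9 fell without it, with medians of -0.16, -0.26 and -0.40. They also rested in part on DREAM replicate 1 and on both dCas9-VPR libraries. The median with DREAM was -0.22 without DREAM replicate 1. With dCas9-VPR it was -0.44 and -0.58 without dCas9-VPR replicate 1 and 2.

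**Figure D2:**
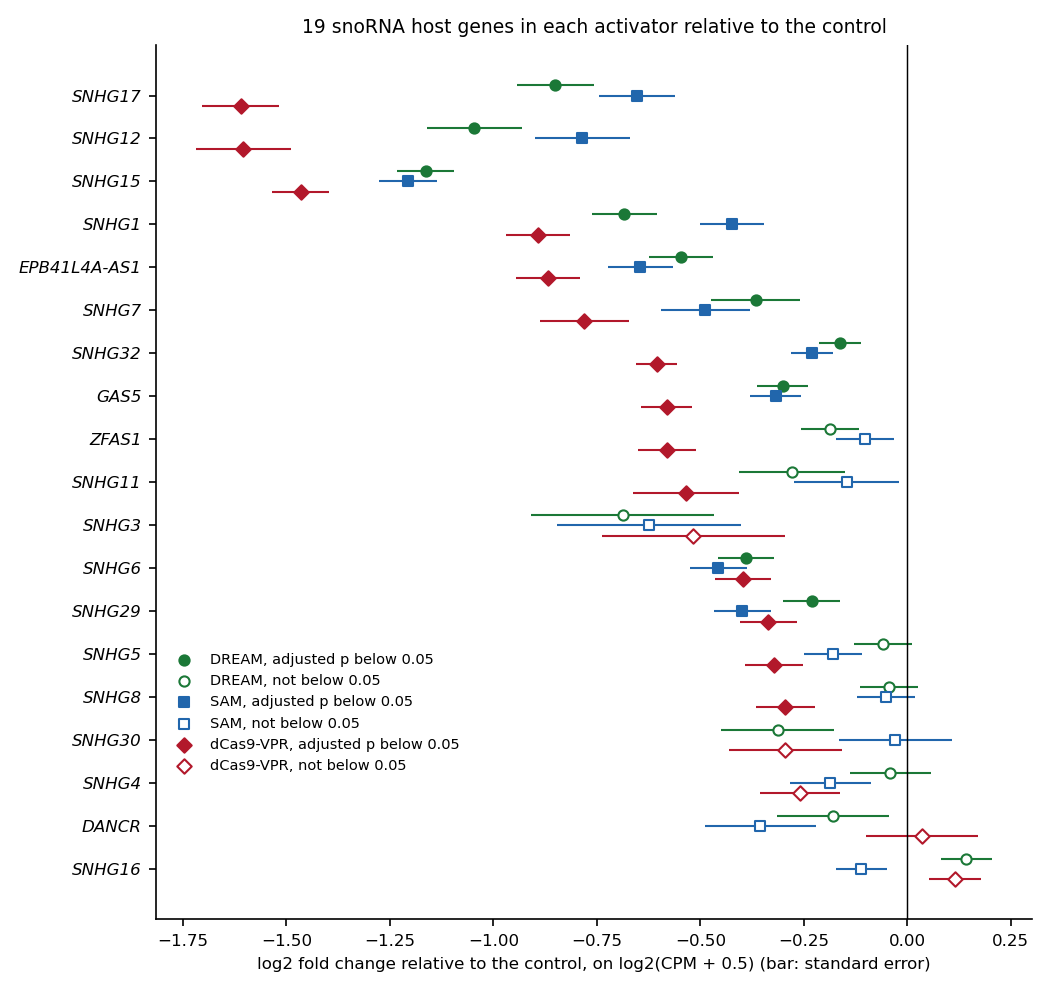
Log2 fold change relative to the control (horizontal axis, on log2(CPM + 0.5), bars are standard errors) of the 19 snoRNA host genes with DREAM (circles), SAM (squares) and dCas9-VPR (diamonds), filled where the adjusted p was below 0.05. *SNHG17* and *SNHG12* reach -1.61 and -1.60 with dCas9-VPR, and *SNHG16* and *DANCR* stay near 0 in that comparison, at 0.11 and 0.04.

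Within the hosts the size of the decrease differed widely. *SNHG12* was at 29.5 and 30.8 CPM in control cells, 14.5 and 14.2 CPM with DREAM, 15.2 and 19.7 CPM with SAM, and 9.62 and 9.56 CPM with dCas9-VPR. Its log2 fold changes were -1.05 (adjusted p = 0.000152), -0.79 and -1.60. *SNHG17*, whose introns carry 5 annotated SNORA71 genes, was at 52.6 and 57.4 CPM in control cells, 28.8 and 31.8 CPM with DREAM, 32.2 and 37.6 CPM with SAM, and 17.99 and 17.3 CPM with dCas9-VPR. Its log2 fold changes were -0.85, -0.65 and -1.61. *SNHG1*, with SNORD22 and SNORD25 to SNORD28 among the snoRNA genes inside, was at 177 and 192 CPM in both control libraries and fell by 0.68, 0.42 and 0.89 on the log2 scale. *EPB41L4A-AS1*, which carries SNORA13, was at 98.8 and 109 CPM in both control libraries and fell by 0.55, 0.64 and 0.87.

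Other hosts had smaller values or were called in fewer comparisons. *GAS5*, a growth-arrest transcript and a classic target of nonsense-mediated decay, was at 620 and 648 CPM with DREAM, 617 and 637 CPM with SAM, and 518 and 527 CPM with dCas9-VPR, with log2 fold changes of -0.30 (adjusted p = 0.00492), -0.32 and -0.58. *SNHG29* fell by 0.23, 0.40 and 0.34, and *SNHG32* by 0.16, 0.23 and 0.61. The DREAM call of *SNHG29* ended without control replicate 2 or DREAM replicate 1 (-0.32 to -0.14), its dCas9-VPR call without control replicate 2 or either dCas9-VPR library (-0.43 to -0.24), and the DREAM call of *SNHG32* without any 1 library (-0.19 to -0.13). *SNHG6*, named with *SNHG3*, *SNHG16* and the other numbered hosts given below after values were seen, fell by 0.39, 0.46 and 0.40. *ZFAS1*, antisense to *ZNFX1*, fell with dCas9-VPR alone by this test (log2 fold change -0.58, adjusted p = 0.000826) and was at -0.19 (adjusted p = 0.072) and -0.10 (adjusted p = 0.263) with DREAM and SAM. *SNHG16* was at 89.0 and 85.6 CPM in control cells, 99.7 and 93.2 CPM with DREAM, 82.7 and 78.8 CPM with SAM, and 91.4 and 97.8 CPM with dCas9-VPR, and was not called in any comparison with the control. *DANCR*, at 41.1 and 47.1 CPM in control cells, was likewise not called. *SNHG5*, *SNHG8* and *SNHG11* fell with dCas9-VPR, by 0.32, 0.29 and 0.54 on the log2 scale, and were not called with DREAM or SAM. *SNHG4* was at -0.04, -0.19 and -0.26 and *SNHG30* at -0.31, -0.03 and -0.29, none called. *SNHG3* had log2 fold changes of -0.69, -0.62 and -0.52 with an SE of 0.22 and was not called either.

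Promoters are shown for 4 hosts that differed in response, since hosts of snoRNAs often start within a run of pyrimidines as ribosomal protein genes do. RefSeq windows from 250 bases before to 50 bases after the start were matched for 89 members, 17 of them hosts, and *SNHG15* had no entry. *SNHG12* and *SNHG17* fell most with dCas9-VPR, *ZFAS1* fell only with dCas9-VPR by the test, and *SNHG16* was not called. Capitals mark the pyrimidine run, sought on the gene's strand as a C followed by at least 4 C or T bases and opening within 10 bases of the start. This search was chosen after values were seen.
SNHG12 (GRCh38.p14, chr1:28581824-28582123, minus strand): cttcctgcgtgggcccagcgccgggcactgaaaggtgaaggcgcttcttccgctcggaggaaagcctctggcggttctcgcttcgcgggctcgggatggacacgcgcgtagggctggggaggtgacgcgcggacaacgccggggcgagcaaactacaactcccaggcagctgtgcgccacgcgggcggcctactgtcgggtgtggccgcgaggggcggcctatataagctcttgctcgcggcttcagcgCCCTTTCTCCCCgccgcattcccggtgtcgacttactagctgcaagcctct
SNHG17 (GRCh38.p14, chr20:38435279-38435578, minus strand): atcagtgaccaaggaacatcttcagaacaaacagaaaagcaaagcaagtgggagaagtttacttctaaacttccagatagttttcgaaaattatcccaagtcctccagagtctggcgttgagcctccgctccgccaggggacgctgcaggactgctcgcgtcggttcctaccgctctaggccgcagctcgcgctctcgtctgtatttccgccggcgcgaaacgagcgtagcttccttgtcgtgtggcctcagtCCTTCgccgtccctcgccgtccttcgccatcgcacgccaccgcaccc
ZFAS1 (GRCh38.p14, chr20:49278392-49278691, plus strand): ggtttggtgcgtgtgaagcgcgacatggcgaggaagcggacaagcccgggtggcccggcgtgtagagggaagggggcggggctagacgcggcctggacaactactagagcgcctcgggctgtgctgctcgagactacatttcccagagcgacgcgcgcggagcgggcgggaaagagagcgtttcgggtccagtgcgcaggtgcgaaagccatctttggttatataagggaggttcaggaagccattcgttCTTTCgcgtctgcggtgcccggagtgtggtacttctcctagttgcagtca
SNHG16 (GRCh38.p14, chr17:76557514-76557813, plus strand): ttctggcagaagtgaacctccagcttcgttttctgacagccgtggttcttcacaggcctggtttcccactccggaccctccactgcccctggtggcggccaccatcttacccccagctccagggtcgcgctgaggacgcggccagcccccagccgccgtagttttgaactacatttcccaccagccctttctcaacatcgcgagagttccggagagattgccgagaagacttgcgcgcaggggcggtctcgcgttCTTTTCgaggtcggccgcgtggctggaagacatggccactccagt
The RefSeq start of *SNHG12* is 1259 bases from the gene start in the authors' files, and that of *ZFAS1* 464 bases. The nearest RefSeq start of a gene was taken without a limit on distance, which reached 254578 bases for *PURPL*. The window of *PTPRG-AS1*, at 50459 bases, holds a CRE, a heat shock element and an antioxidant response element counted below. A run was present in 11 of the 17 host windows and in 35 of the 89 member windows (39.3%), beside 31.4% of 35116 RefSeq windows of the same length, and it was present both in hosts that fell and in *SNHG16* and *DANCR*. Among other motifs, sought on both strands, the heat shock element GAANNTTC was in 6 member windows (6.74%), beside 6.77% of all windows. The antioxidant response element TGACNNNGC was in 14 (15.7% beside 13.3%), the E-box CACGTG in 10 (11.2% beside 7.26%), the CRE TGACGTCA in 3 (3.37% beside 1.85%) and the CArG box in 1 (1.12% beside 1.29%). None of these matches says that a factor binds there.

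The activators were next compared with each other, which leaves the control libraries out of the contrast. In comparisons with dCas9-VPR, the effector, the MS2 loops of the gRNAs and the MCP fusion cannot be told apart. Relative to dCas9-VPR, 12 members were higher and 4 lower with DREAM, 11.9% of members beside 13.1% of all genes tested (7.9% higher and 5.21% lower). Of the 12 higher, 10 were snoRNA hosts, and 2 of the other 116 members were higher. The median of the hosts was 0.26, beside 0.00 over the other members and 0.02 over all genes. *SNHG17* was higher with DREAM than with dCas9-VPR by a log2 fold change of 0.76 (SE 0.09, adjusted p = 0.0011), *SNHG12* by 0.56 (adjusted p = 0.0118), *SNHG32* by 0.44 (adjusted p = 0.00089), *SNHG7* by 0.41, *ZFAS1* by 0.39, *EPB41L4A-AS1* by 0.32, *SNHG15* by 0.30, *GAS5* by 0.28, *SNHG5* by 0.26 and *SNHG8* by 0.25. The number of hosts called fell from 10 to 2 without either dCas9-VPR library, with medians of 0.21 and 0.29, and to 5 without DREAM replicate 2.

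More members were called between SAM and dCas9-VPR. There, 39 members were higher and 5 lower, 32.6% beside 29.9% of all genes (23.6% higher and 6.32% lower), and median-of-ratios scaling gave 23 and 11. Among the hosts 9 were higher and 1, *SNHG16*, was lower (log2 fold change -0.23, adjusted p = 0.0201), with a median of 0.26 beside 0.14 over the other members. That scaling left 5 higher and 2 lower, and leaving out SAM replicate 2 or either dCas9-VPR library left 5 higher. *SNHG17* was at 0.96 (adjusted p = 0.000191) and *SNHG12* at 0.82 (adjusted p = 0.000817). For *GAS5* (0.26) and *SNHG15* (0.26) the call was lost under that scaling (0.17 each). Between DREAM and SAM, 1 host of the 19 was called, *SNHG16*, higher with DREAM (0.25, adjusted p = 0.0304).

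**Figure D3:**
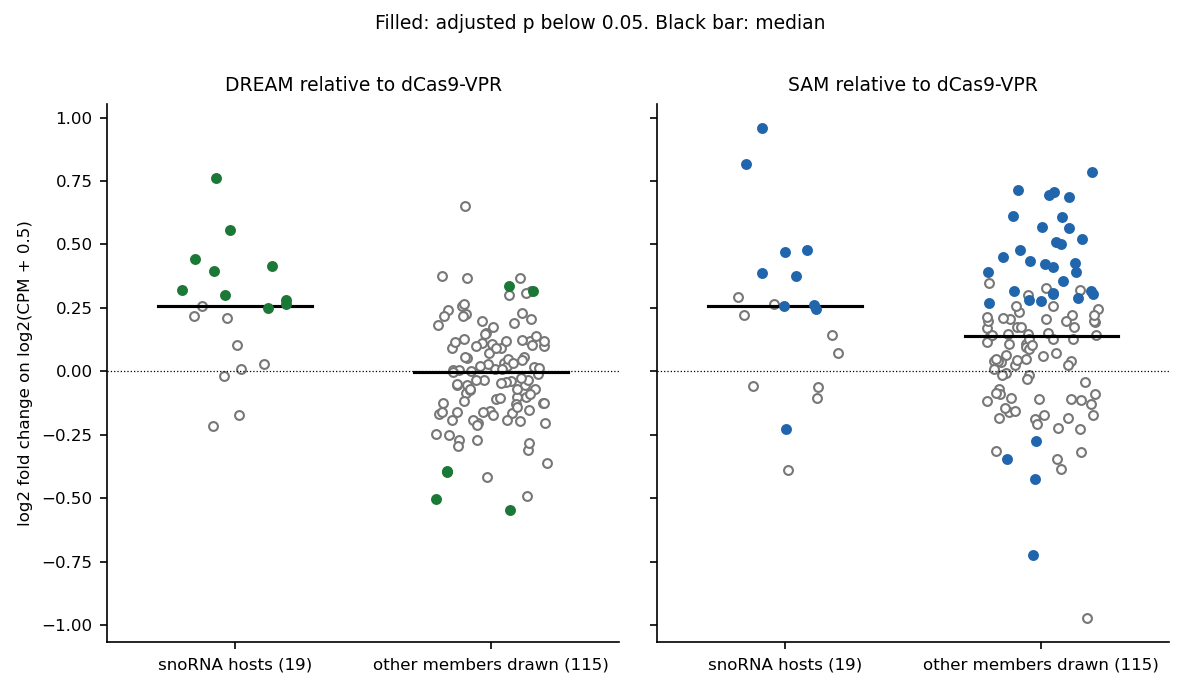
Log2 fold change (vertical axis, on log2(CPM + 0.5)) of DREAM (left) and SAM (right) relative to dCas9-VPR for the 19 snoRNA hosts and 115 of the other members, 1 point a gene, filled where the adjusted p was below 0.05, with a bar for the median. In the DREAM panel the host median is 0.26 and the other median 0.00, and the open point at -0.97 in the SAM panel is *MALAT1*, whose replicates differ widely.

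DREAM relative to SAM gave 1 member higher and 16 lower, 12.6% beside 10.7% of all genes (1.59% higher and 9.14% lower). Only 6 were called under median-of-ratios scaling and 2 in the fit of those 4 libraries alone. Without SAM replicate 2 none of the members was called, without SAM replicate 1 there were 4 and without DREAM replicate 2 there were 7. After *GLIDR* and *AC133555.6*, *LINC00641* was at 34.7 and 26.9 CPM with DREAM and 44.8 and 42.9 CPM with SAM (-0.51, adjusted p = 0.02), and was named after its values were seen. It was also 0.64 higher with SAM than in the control and 0.69 higher than with dCas9-VPR. *APTR* and *SRP14-AS1*, named likewise, were higher with SAM than with dCas9-VPR by 0.71 and 0.72. No member passed a 2-fold change between activators, beside 0.721%, 0.734% and 2.31% of all genes in the order given next, and the counts at an unadjusted p below 0.05 were 40 for DREAM against SAM, 35 for DREAM against dCas9-VPR and 61 for SAM against dCas9-VPR.

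Among lncRNAs known to act in the nucleus or on chromatin, 6 were members. *NEAT1* was at 12.9 and 9.29 CPM in control cells, 8.83 and 9.52 CPM with DREAM, 8.55 and 7.59 CPM with SAM, and 13.3 and 14.0 CPM with dCas9-VPR. Both dCas9-VPR libraries were above the 4 libraries of the other activators, and *NEAT1* was lower with DREAM than with dCas9-VPR by 0.55 on the log2 scale (adjusted p = 0.0321) and lower with SAM by 0.72 (adjusted p = 0.00419). The DREAM call ended when any 1 of the 4 libraries was left out, whereas the SAM call did not. *HOTAIRM1* was at 28.6 and 36.1 CPM in both control libraries and fell by 0.74 with DREAM and 0.67 with SAM, and was at -0.33 with dCas9-VPR (adjusted p = 0.147). *CRNDE* fell by 0.39 with DREAM and 0.39 with SAM and was at -0.20 with dCas9-VPR (adjusted p = 0.108). *JPX*, a gene of the X-inactivation centre, was 0.48 higher with SAM than with dCas9-VPR (adjusted p = 0.00127), and its rise of 0.26 relative to the control was lost under median-of-ratios scaling (0.11). Of all genes tested, 18.8%, 35.7% and 11% rose and 9.25%, 8.89% and 6.68% fell with DREAM, SAM and dCas9-VPR. The list of 6 includes *MALAT1*, whose replicates were too far apart for a call. Of the list, 0 rose and 3 fell with DREAM, 1 rose and 4 fell with SAM, and 0 rose and 1 fell with dCas9-VPR, *PVT1* among those that fell each time. *NEAT1* was another that fell with SAM (-0.42, adjusted p = 0.0342), a call lost without control replicate 1 or either SAM library (-0.65 to -0.19).

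Of lncRNAs known for roles after transcription, 5 were members, and 3 of them are hosts described above. *NORAD* was at 144 and 115 CPM in control cells, 193 and 141 CPM with DREAM, 208 and 170 CPM with SAM, and 204 and 178 CPM with dCas9-VPR. It rose with SAM by 0.55 (SE 0.17, adjusted p = 0.0356), a call lost without control replicate 2 or SAM replicate 1 (0.38 to 0.71), and was at 0.36 and 0.56 with DREAM and dCas9-VPR (adjusted p = 0.166 and 0.062). *OIP5-AS1*, at 81.8 and 79.4 CPM in control cells, was at 0.04, 0.07 and 0.17 with an SE of 0.08 and was not called. The microRNA host *MIR924HG* fell with DREAM (-0.43, adjusted p = 0.0145) and dCas9-VPR (-0.54, adjusted p = 0.0102) and was at -0.03 with SAM, and without control replicate 2 neither call held (DREAM -0.54 to -0.33, dCas9-VPR -0.66 to -0.41 over all libraries left out). No member belonged to the list of imprinted lncRNAs.

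By naming class, the 44 genes with an antisense name had 4 that rose and 5 that fell with DREAM, 17 and 4 with SAM, and 4 and 4 with dCas9-VPR. The SAM counts are near the shares of all genes tested, of which 35.7% rose and 8.89% fell. The 13 LINC genes had 0 calls with DREAM, 4 that rose with SAM and 0 with dCas9-VPR. The 30 clone-based names had 4 that rose and 2 that fell with DREAM, 6 and 3 with SAM, and 2 and 2 with dCas9-VPR. None of the 3 divergent transcripts was called with SAM or dCas9-VPR, and 1 fell with DREAM. The shares of all genes that rose and fell, given above, are the background of these classes too.

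The position of the lncRNAs relative to coding genes was then examined, by the coordinates in the files. Of the 135, 69 overlapped a coding gene on the other strand, 50 started within 1 kb of the start of one on the other strand, 18 overlapped one on their own strand, and 40 had neither overlap nor a start within 1 kb. The kit keeps strand, but whether strand was used in counting is not given in the sources used here, so reads of overlapping partners cannot be told apart. Among 80 tested pairs overlapping on opposite strands, the lncRNA was called with DREAM in 20, with the coding partner called in the same direction in 6, in the opposite one in 2 and not called in 12. With SAM these counts were 41, 14, 2 and 25, and with dCas9-VPR 19, 2, 1 and 16. Of all genes tested, 28%, 44.6% and 17.6% were called in these comparisons.

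*ZNF503-AS2* and *ZNF503*, whose starts are 245 bases apart on opposite strands, had like values. *ZNF503-AS2*, named with its partner after values were seen, was at 18.5 and 20.8 CPM in control cells, 10.8 and 13.4 CPM with DREAM, 12.4 and 13.0 CPM with SAM, and 16.1 and 18.5 CPM with dCas9-VPR. *ZNF503*, a zinc finger repressor gene, was at 110 and 103 CPM in control cells, 64.3 and 61.2 CPM with DREAM, 74.4 and 63.1 CPM with SAM, and 96.7 and 98.9 CPM with dCas9-VPR. The lncRNA fell by 0.68 and 0.61 with DREAM and SAM and was at -0.18 with dCas9-VPR, and the coding gene was at -0.76, -0.63 and -0.12. Against dCas9-VPR, DREAM was lower by 0.50 for *ZNF503-AS2* (adjusted p = 0.0219) and by 0.64 for *ZNF503* (adjusted p = 0.00127). *NR2F1-AS1*, which overlaps the start of the nuclear receptor gene *NR2F1*, was at 11.7 and 15.1 CPM in both control libraries and fell by 1.08, 0.93 and 0.84. *NR2F1* was at -1.04, -0.48 and -0.31 (adjusted p = 0.0774 for dCas9-VPR), and differed between DREAM and dCas9-VPR (-0.73, adjusted p = 0.00328) where *NR2F1-AS1* did not pass (-0.25, adjusted p = 0.259).

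Other pairs differed in which gene was called. *CHASERR*, which lies before *CHD2* on the same strand and is known to restrain it, was at 59.2 and 55.8 CPM in control cells, 42.9 and 35.6 CPM with DREAM, 43.1 and 38.8 CPM with SAM, and 41.8 and 36.2 CPM with dCas9-VPR. It fell by 0.55, 0.48 and 0.56 on the log2 scale and was named after its values were seen. *CHD2* was at 0.11 and 0.37 with DREAM and dCas9-VPR, not called, and rose by 0.53 with SAM (adjusted p = 0.019). *THAP9-AS1*, named likewise, fell by 0.89, 0.47 and 0.91 while *THAP9*, whose start is 276 bases away on the other strand, was at -0.28, -0.11 and -0.26 with 0 calls. *ZNFX1*, an antiviral helicase gene that starts within 1 kb of *ZFAS1* on the other strand, rose by 0.63 with DREAM (adjusted p = 0.00677) and 0.55 with SAM, where *ZFAS1* was not called.

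*SNHG1* and *SLC3A2*, which encodes the heavy chain of amino acid transporters, start 149 bases apart on opposite strands. *SLC3A2* was at 481 and 491 CPM in control cells, 352 and 363 CPM with DREAM, 357 and 371 CPM with SAM, and 348 and 347 CPM with dCas9-VPR, log2 fold changes of -0.44 (adjusted p = 9.66e-05), -0.41 and -0.48. *SNHG1* differed between SAM and dCas9-VPR (0.47, adjusted p = 0.00181) and *SLC3A2* did not pass there (0.07, adjusted p = 0.274). The promoter window of *SNHG1* is shown because both genes start in it, with the 148 bases between the 2 starts in capitals.
SNHG1 (GRCh38.p14, chr11:62855836-62856135, minus strand): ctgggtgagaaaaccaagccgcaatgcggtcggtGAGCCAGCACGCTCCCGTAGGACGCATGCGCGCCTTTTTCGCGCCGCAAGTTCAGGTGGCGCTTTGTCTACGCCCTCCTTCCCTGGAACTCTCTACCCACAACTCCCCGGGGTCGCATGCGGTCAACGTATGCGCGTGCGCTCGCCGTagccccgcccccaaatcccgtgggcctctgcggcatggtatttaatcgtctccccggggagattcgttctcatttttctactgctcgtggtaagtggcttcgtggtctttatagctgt

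**Figure D4:**
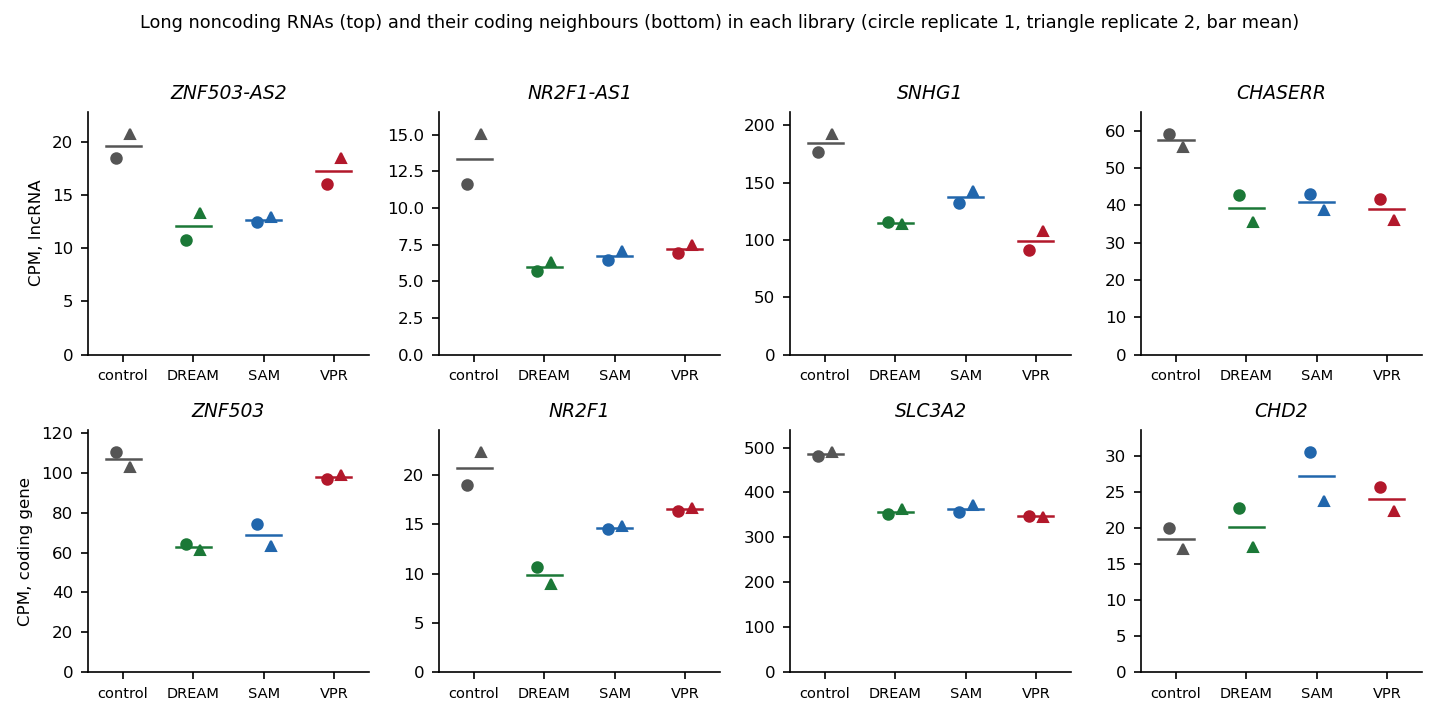
CPM (vertical axes, linear and starting at 0) of 4 lncRNAs (top row) and the coding gene beside each (bottom row) by group, with a circle for replicate 1, a triangle for replicate 2 and a bar for the mean. *ZNF503-AS2* and *ZNF503* are both lower with DREAM and SAM, whereas *CHASERR* is lower with every activator and *CHD2* is not lower with any.

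For some members the call depended on which libraries entered the fit, because their replicates were far apart with SAM and dCas9-VPR. *FP236383.4*, *FP236383.5* and *FP671120.6* lie in ribosomal DNA repeats of chromosome 21, each between 1265 and 1271 bases before a 5.8S rRNA gene on the other strand. *FP236383.5* and *FP671120.6* had the same value in every library and are 1 measurement. The sum of the 3 genes was 1144 and 982 CPM in control cells, 2768 and 2674 CPM with DREAM, 3056 and 827 CPM with SAM, and 3029 and 1184 CPM with dCas9-VPR. Both DREAM libraries were above both control libraries, while the SAM and dCas9-VPR libraries ranged from near or below the control to above the DREAM libraries. In the fit of all 8 libraries, which shares 1 spread over the groups, *FP236383.4* was not called with DREAM (log2 fold change 1.47, SE 0.92, adjusted p = 0.312). In the limma fit of the 4 control and DREAM libraries alone it was called with the same fold change (SE 0.08, adjusted p = 6.13e-05), and *FP236383.5* and *FP671120.6* were called at 1.22 (SE 0.14, adjusted p = 0.00128), so these 3 rows are the difference between 5 and 8 members past a 2-fold change with DREAM. Genes typed as rRNA moved in the same libraries, at 29.2 and 26.2 CPM in control cells, 169 and 90.9 CPM with DREAM, 194 and 32.9 CPM with SAM, and 179 and 51.2 CPM with dCas9-VPR. The labels give polyA RNA and the methods name a total RNA kit, and the part of rRNA carry-over in these values was not tested.

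*MALAT1*, the abundant lncRNA of nuclear speckles, was at 37.9 and 13.6 CPM in control cells, 7.66 and 35.2 CPM with DREAM, 23.6 and 5.71 CPM with SAM, and 30.7 and 18.03 CPM with dCas9-VPR. The replicates of *MALAT1* were over 2-fold apart in 3 of the 4 groups, and with an SE of 1.14 on the log2 scale none of its differences could be detected.

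**Figure D5:**
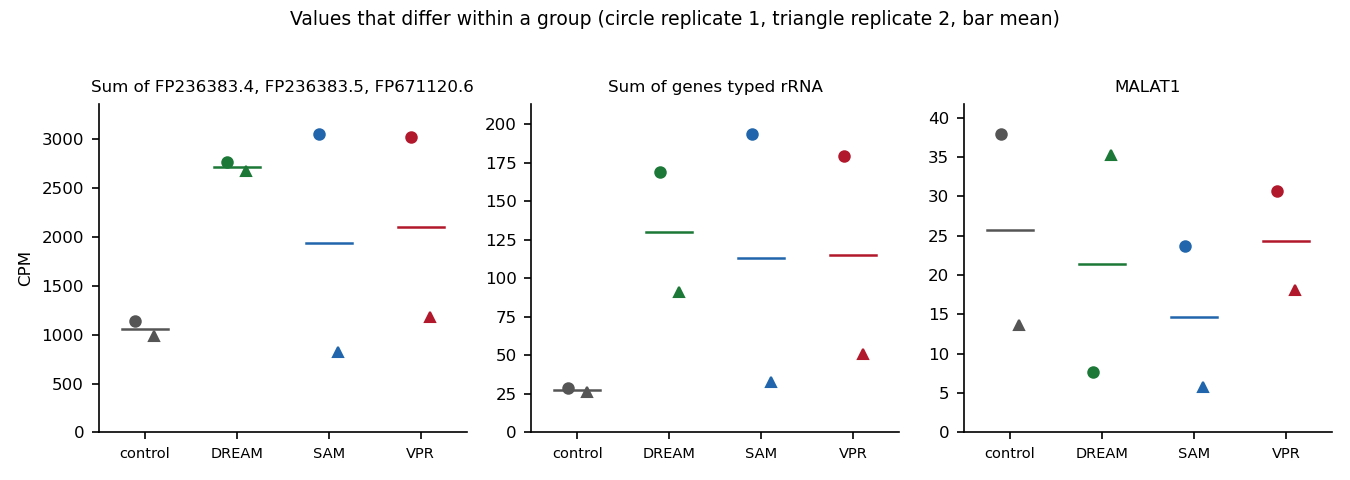
CPM (vertical axes, linear and starting at 0) by group of the sum of 3 ribosomal DNA lncRNA genes, of the sum of genes typed rRNA and of *MALAT1*, with a circle for replicate 1, a triangle for replicate 2 and a bar for the mean. Replicate 1 with SAM is at 3056 CPM in the left panel and 194 CPM in the middle panel, and replicate 2 at 827 and 32.9 CPM.

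Coding genes for the proteins that act on these RNAs were described from lists of their own. Of the 8 core snoRNP proteins, which bind snoRNAs released from the hosts, 1 rose and 3 fell with DREAM, 2 rose and 3 fell with SAM, and 1 rose and 2 fell with dCas9-VPR. *NOP58* fell by 0.44, 0.41 and 0.38, *NOP56* by 0.25, 0.25 and 0.29, and *SNU13* rose by 0.37, 0.38 and 0.20. Of 10 genes of nonsense-mediated decay, 0 rose and 3 fell with DREAM, 4 rose and 3 fell with SAM, and 0 rose and 2 fell with dCas9-VPR. *SMG9*, a regulator of the SMG1 kinase, fell by 0.56, 0.40 and 0.46 and *SMG5* by 0.24, 0.37 and 0.53. Of 10 paraspeckle protein genes, 0 were called with DREAM, 1 rose and 1 fell with SAM, and 2 rose with dCas9-VPR. *RBM14* was the one that fell with SAM (-0.28) and was among those that rose with dCas9-VPR (0.27). Of 9 genes of microRNA processing, 1, 3 and 1 rose and 0 fell, with *AGO1* rising by 0.57, 0.52 and 0.54. Of 18 genes of the nuclear exosome and its adaptors, 0 rose and 1 fell with DREAM, 3 rose and 1 fell with SAM, and 0 rose and 2 fell with dCas9-VPR, with *EXOSC2* lower in all 3. The shares of all genes called, given above, are the background of these lists too.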

How the data were processed

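RNA-seq libraries of HEK293T cells in 4 groups of 2 were assigned to groups and replicates by their titles. Per the methods, the authors aligned reads with STAR 2.7.3a to hg38 with Gencode release 36 and estimated gene levels by a Bayesian approach. The deposited files give CPM with 0.0001 added to each value. The authors used DESeq2 (given as 3.5) on read counts, which are not in the files used here. Whole reads could not be recovered from the CPM, so no count model was run and limma, the test set for CPM, was used.

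The test was that of limma (version 3.58.1, under R 4.3.3, with a mean-dependent prior variance and robust estimation) on log2(CPM + 0.5) of all 8 libraries, with 1 coefficient per group and 4 residual degrees of freedom. It covered 6 contrasts and 15122 genes, those that reached 1 CPM in 2 or more libraries, and adjusted p-values are Benjamini-Hochberg values over all genes tested in a contrast. A gene rose or fell at an FDR below 0.05. Fold changes on the log2(CPM + 0.5) scale understate changes of low genes. With 2 libraries a group, an exact permutation test of 1 gene cannot go below p = 0.333, so none is given. The fit was tested on counts simulated at an assumed depth with 1 dispersion for all genes. That simulation does not show how the fit performs for members with replicates as far apart as those of *MALAT1*.

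The members and lists were chosen with earlier results of these data known. Genes named in the text are those with the largest changes in each comparison, the highest control levels, a fixed set of known lncRNAs, those at the limit of the rule and examples of each list, and others are said to be chosen after their values were seen. Named lists were snoRNA hosts, microRNA hosts, nuclear, post-transcriptional and imprinted lncRNAs and naming classes. Exons, snoRNA and microRNA genes came from Gencode release 44 on hg38, and promoter sequences from RefSeq (GRCh38.p14). Gene positions are those of the files, whose ends lie 1 base past those of Gencode. Alternatives were median-of-ratios scaling, other pseudocounts and filters, only the 4 libraries compared, a replicate block, a test against a fold change of 2, other rules for members, and leaving out each library. Tables were read with Python 3.11.15 and pandas 2.3.3.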

Additional observations from a re-analysis of the deposited data

How the results depend on the processing

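Named members in this section are the 35 lncRNA genes named by the rules given above. Genes named after their values were seen are not among them and were not followed 1 by 1 through the alternatives. No named member's log2 fold change that was called changed sign under any alternative. The count test of the plan (edgeR and DESeq2) was not run because the files hold CPM. Pseudocounts of 0.1 and 1 and filters of none or of 10 CPM left every count of members within 1.5 times. Under median-of-ratios scaling, 6 members differed between DREAM and SAM. In fits of only the 4 libraries compared, 8 members passed a 2-fold change with DREAM, 2 differed between DREAM and SAM, and 10 between DREAM and dCas9-VPR. Tested against a fold change of 2 itself, 2, 1 and 3 members passed with DREAM, SAM and dCas9-VPR. The cause was not tested, except that the 4-library fits have fewer samples and leave out the wide SAM and dCas9-VPR replicates of *FP236383.4*, *FP236383.5* and *FP671120.6*.

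The replicate numbers 1 and 2 are shared by all groups, but the labels do not say what they mark, and the differences between replicates correlated across genes by 0.133 to 0.326 over the 6 pairs of groups. With a replicate block, members called at an FDR below 0.05 were 70 with DREAM, 65 with dCas9-VPR, 42 for DREAM against SAM, 42 for DREAM against dCas9-VPR and 69 for SAM against dCas9-VPR, and all 98 calls of named members held. Of the 19 snoRNA hosts, the block gave 15, 13 and 17 that fell and 1, 0 and 0 that rose with DREAM, SAM and dCas9-VPR, 5 higher and 4 lower for DREAM against SAM, and 13 higher and 2 lower both for DREAM and for SAM against dCas9-VPR. With 2 numbers, pairing is not established.

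Other rules for members changed the counts. At a mean of 10 CPM over all 8 libraries the list was longer (143 genes). Fewer of these passed a 2-fold change with DREAM (3) and dCas9-VPR (4), while 5 passed with SAM and 2 between SAM and dCas9-VPR. At a control mean of 20 CPM (59 genes), 3 and 2 passed it with DREAM and SAM, and at an FDR below 0.05 there were 19 with DREAM, 30 with SAM, 18 with dCas9-VPR, 7 for DREAM against SAM, 10 for DREAM against dCas9-VPR and 21 for SAM against dCas9-VPR. At 5 CPM (277 genes), 10, 14 and 12 passed a 2-fold change with DREAM, SAM and dCas9-VPR and 3 between SAM and dCas9-VPR, and the counts at that FDR were 70, 125, 59, 39, 31 and 90. Chosen on control replicate 2 and tested without it, 23 and 16 were called with DREAM and dCas9-VPR.

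Leaving out 1 library at a time gave 5 to 7 members past a 2-fold change with DREAM, 3 to 4 with SAM, 5 to 7 with dCas9-VPR, and 0 to 2 between SAM and dCas9-VPR, and 0 in both other comparisons of activators. At an FDR below 0.05 the ranges were 24 to 43 with DREAM, 48 to 58 with SAM, 15 to 35 with dCas9-VPR, 0 to 24 for DREAM against SAM, 2 to 16 for DREAM against dCas9-VPR and 20 to 30 for SAM against dCas9-VPR. The count with dCas9-VPR was 16 without control replicate 2, and 18 and 15 without dCas9-VPR replicate 1 and 2. It was 2 for DREAM against dCas9-VPR without either dCas9-VPR library, and for SAM against dCas9-VPR 25 and 20 without dCas9-VPR replicate 1 and 2 and 20 without SAM replicate 2. Of 98 calls of named members, 59 held with every library left out in turn. Those lost with at least 1 library include all calls of *RPARP-AS1* other than SAM against the control. They also include *THAP7-AS1* with SAM (0.35 to 0.45) and dCas9-VPR (0.26 to 0.45), and *LINC01128* with SAM (0.41 to 0.63). For DREAM against dCas9-VPR, the calls of *SNHG12* (0.54 to 0.57), *ZFAS1* (0.33 to 0.46) and *SNHG15* (0.28 to 0.33) were lost without either dCas9-VPR library. Those of *GAS5* (0.25 to 0.31) and *EPB41L4A-AS1* (0.22 to 0.42) were lost without either dCas9-VPR library and also without a DREAM library. The number of libraries limits what can be detected for genes with replicates as far apart as those of *MALAT1*.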
